A study of Mus musculus with 64 samples.

Results

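Transcript levels of 8 genes that act around the transcription factor CREB were followed in mouse brain after acute drug treatment. They were the salt-inducible kinases Sik1, Sik2 and Sik3, the CREB coactivators Crtc1 and Crtc2, the factor Creb1 itself, its relative Crem and the insulin receptor substrate Irs2. Members were chosen by gene name, 8 of the 46785 genes in the tables, and comprise 79 of 112714 annotated transcripts. Sik1, Crem and Irs2 were picked with their drug responses in these libraries known, so their drug comparisons are given as a description, without a test, and the other 5 were tested.

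RNA was depleted of ribosomal RNA and sequenced as 64 libraries, 32 from the nucleus accumbens (NAc) and 32 from the prefrontal cortex (PFCx). All mice were C57BL/6N males of 8 to 10 weeks that received 1 intraperitoneal injection and were killed 2 h later. The doses were 1 mg/kg of haloperidol and 0.5 mg/kg of risperidone, both antipsychotics, 20 mg/kg of mianserin and 16 mg/kg of venlafaxine, both antidepressants, 2 mg/kg of the psychostimulant methamphetamine and 20 mg/kg of the anaesthetic ketamine. Each drug had 4 libraries per tissue. Saline had 8, 4 labelled set I and 4 labelled set II. The vehicle of haloperidol and risperidone also held a drop of hydrochloric acid, and an effect of that vehicle was not tested. The labels do not say that the libraries of a group came from separate animals, or that each mouse gave both tissues, so p-values measure the spread between these libraries, which may be technical.

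CREB sits on DNA and is switched on by cAMP and calcium signals, partly through phosphorylation and partly through CRTC proteins that enter the nucleus and bind to it. Salt-inducible kinases phosphorylate CRTCs and hold them in the cytoplasm, and Sik1 is itself a CREB target, which closes a feedback loop. Crem encodes relatives of CREB, and an internal promoter of the gene gives the short repressor ICER, while Irs2 carries signals from insulin and IGF-1 receptors and is a known CREB-CRTC target outside the brain. In the striatum, dopamine D1 receptors raise cAMP and D2 receptors lower it.

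Promoter sequences are shown for Sik2, Sik3 and Irs2 because the cAMP response element, the site that CREB binds, is a defined motif, and these members differ in how often its core occurs. RefSeq windows of 250 bases before to 50 bases after the RefSeq start (GRCm38.p6) were matched for 5 of the 8 members. That start can differ from those of the transcripts measured here. The sole Irs2 transcript starts at 11008458, outside its window. The Sik2 transcripts ENSMUST00000176663 and ENSMUST00000176824 (38.1% and 24.4% of NAc Sik2 FPKM after saline) start at 51008936, also outside. Distances below are from the RefSeq start. The full element TGACGTCA occurred in none of the 5, and in 1.79% of all 32851 windows. The core TGACG on either strand (CGTCA when read on the other strand), which the full element also holds, was present in 20.8% of all windows. Sik2 had 2 cores, the TGACG beginning 1 base before the start and the CGTCA 12 bases after it. Sik3 had 3, beginning 133, 116 and 57 bases before the start. Irs2, Creb1 and Crtc1 had none. The sequences run from 5′ to 3′ on the strand of the gene, and capitals mark the core.
Sik2, chr9:51009024-51009323, minus strand: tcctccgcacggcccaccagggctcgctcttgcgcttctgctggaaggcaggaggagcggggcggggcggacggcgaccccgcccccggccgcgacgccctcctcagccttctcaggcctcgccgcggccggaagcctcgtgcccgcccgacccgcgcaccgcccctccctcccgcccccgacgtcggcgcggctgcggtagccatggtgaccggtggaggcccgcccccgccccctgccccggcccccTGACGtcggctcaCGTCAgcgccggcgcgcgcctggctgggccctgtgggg
Sik3, chr9:46012570-46012869, plus strand: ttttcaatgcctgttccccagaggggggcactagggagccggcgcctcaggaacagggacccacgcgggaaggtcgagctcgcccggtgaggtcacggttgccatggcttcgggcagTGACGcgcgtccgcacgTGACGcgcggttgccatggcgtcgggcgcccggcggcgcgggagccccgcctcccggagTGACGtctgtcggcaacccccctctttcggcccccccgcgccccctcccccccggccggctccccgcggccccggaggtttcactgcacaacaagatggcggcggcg
Irs2, chr8:11008880-11009179, minus strand: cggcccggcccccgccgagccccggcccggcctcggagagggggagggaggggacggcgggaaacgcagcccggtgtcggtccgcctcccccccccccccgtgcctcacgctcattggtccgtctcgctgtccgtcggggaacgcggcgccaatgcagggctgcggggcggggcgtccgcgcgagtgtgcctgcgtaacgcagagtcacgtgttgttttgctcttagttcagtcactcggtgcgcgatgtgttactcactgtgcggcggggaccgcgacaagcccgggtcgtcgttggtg
A match describes these letters only and says nothing of binding. G and C made up 80.0% of the Sik2 window, 73.7% of that of Sik3 and 72.0% of that of Irs2.

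The libraries carried 1.52 to 3.26 gigabases of aligned sequence (median 2.39), estimated from coverage and FPKM (a fragment count corrected for transcript length and library size). In the NAc the libraries fell into 2 sample sets by how many transcripts were listed above 0. Saline set I, haloperidol, risperidone and methamphetamine held 85287 to 87827 such transcripts, and saline set II, mianserin, venlafaxine and ketamine held 107099 to 110556, whereas all PFCx libraries held 108556 to 110852. Each drug is therefore compared with all 8 saline libraries and also with the 4 of its own set. The labels give no set for the drugs. The set of a drug was inferred from its NAc libraries and carried over to the PFCx, where these numbers do not separate the sets. Differences are on the scale of log2(FPKM + 1), on which changes of low genes come out too small, and folds are ratios of mean FPKM. A call means an adjusted p under 0.05 by limma for a single drug or a tissue, under 0.0001 for a drug effect over the 6 drugs and under 0.001 for a drug effect that differs between tissues. The dissections differed as labelled. Summed FPKM of 7 medium spiny neuron markers ran from 352 to 536 in NAc libraries and from 15.9 to 56.7 in PFCx libraries, and that of 6 cortical projection neuron markers from 20.8 to 79.2 and from 151 to 217. No marker on these lists was at 0 in every library.

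Among the salt-inducible kinases, Sik3 was the most abundant per length after saline and Sik1 the least. In the NAc, Sik3 reached 15.8 ± 0.970 FPKM, Sik2 7.23 ± 0.648 and Sik1 1.71 ± 0.294 (mean ± SD, n = 8). The coactivator Crtc1 stood at 15.2 ± 2.18 FPKM, above Crtc2 at 3.35 ± 0.291. Creb1 stood at 8.17 ± 0.548, Irs2 at 5.85 ± 1.05 and Crem at 3.62 ± 0.809. Sik1 has 1 annotated transcript, on chromosome 17 from 31844248 to 31855792 on the minus strand, and Irs2 has 1, on chromosome 8 from 10986980 to 11008458 on the minus strand (GRCm38). Their coverage was low to moderate, with a median of 3.33 reads per base for Sik1 (1.01 to 8.94 over the libraries) and 13.2 for Irs2 (5.89 to 35.3). No exon of Sik1 overlaps another annotated gene, whereas 162 exonic bases of Irs2 overlap 9530052E02Rik on the opposite strand. Whether reads were counted by strand is not given in the sources used here, so reads in that stretch cannot be told apart.

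Sik1, the kinase that CREB induces and that restrains CRTCs, was higher after haloperidol, risperidone and methamphetamine in both tissues, and after mianserin most of all in the PFCx. In the NAc the 4 haloperidol libraries held 3.41, 3.39, 4.39 and 3.61 FPKM, the 4 methamphetamine libraries 3.29, 3.102, 2.89 and 3.54, and the 4 risperidone libraries 3.103, 2.73, 2.56 and 3.07. Saline libraries ran from 1.36 to 2.24 with a median of 1.70. All 12 of these drug libraries lay above all 8 saline libraries. Means were 2.17 times those of saline for haloperidol, 1.88 times for methamphetamine and 1.68 times for risperidone, and 1.93, 1.67 and 1.495 times against saline set I alone. After scaling to the 75th percentile the log2 differences from the 8 saline libraries were 0.37, 0.26 and 0.15, against 0.80, 0.64 and 0.52 as deposited. Saline set I had a higher mean (1.92 ± 0.250) than saline set II (1.501 ± 0.158), although the sets overlapped.

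With mianserin, NAc Sik1 was 2.58, 2.69, 2.00 and 2.61 FPKM, so 3 of 4 libraries lay above all saline libraries and all 4 lay above saline set II (as in 4.45% of all genes, in either direction). The mean was 1.45 times that of the 8 saline libraries and 1.64 times that of set II. Ketamine libraries held 1.95, 1.51, 1.73 and 1.82 FPKM, inside the range of the 8 saline libraries, but 3 of 4 lay above the range of set II (1.36 to 1.72), with a mean 1.17 times that of set II. Venlafaxine libraries held 1.28, 1.39, 1.52 and 1.28 FPKM and overlapped saline. Their log2 difference was -0.19 against the 8 saline libraries, -0.08 against set II and 0.16 after scaling to the 75th percentile. Ordered by mean, the NAc groups ran haloperidol, methamphetamine, risperidone, mianserin, ketamine, saline, venlafaxine, and 5 of the 6 neighbouring pairs overlapped. Mianserin and ketamine were the pair that did not. After scaling to the 75th percentile the log2 differences from the 8 saline libraries were 0.73 for mianserin and 0.33 for ketamine. Those of haloperidol, methamphetamine and risperidone were 0.37, 0.26 and 0.15, so this order did not hold under that scaling.

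In the PFCx the order of Sik1 was a different one. Mianserin libraries held 3.09, 2.51, 2.19 and 1.62 FPKM, a spread that took in all 4 methamphetamine libraries (2.28, 2.72, 1.99 and 1.98) and all 4 risperidone libraries (1.78, 1.81, 1.80 and 2.25). Haloperidol libraries held 1.58, 1.61, 1.56 and 1.46 FPKM. Saline libraries ran from 0.842 to 1.27 with a median of 1.08, below every library of these 4 drugs. The ratios of means were 2.21 for mianserin, 2.11 for methamphetamine, 1.79 for risperidone and 1.46 for haloperidol. Haloperidol thus had the highest mean of the 6 drugs in the NAc and the fourth highest in the PFCx. Ketamine libraries held 1.90, 1.36, 1.23 and 1.30 FPKM, with 1 of them inside the saline range, and venlafaxine libraries held 1.15, 0.993, 1.02 and 1.18, all inside it. The log2 differences against the own saline set were within 0.01 of those against all 8 in the PFCx.

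As deposited, Irs2, the adaptor of insulin and IGF-1 receptors, was higher in the same 3 drug groups in the NAc, all of the sample set of saline I. Haloperidol libraries held 13.0, 12.3, 15.3 and 12.5 FPKM, risperidone libraries 11.7, 12.4, 10.4 and 11.02, and methamphetamine libraries 10.1, 9.33, 9.92 and 10.03. Saline ran from 4.27 to 7.04 with a median of 6.002, and all 12 libraries of the 3 groups lay above it. The ratio of means was 2.27 for haloperidol, 1.94 for risperidone and 1.68 for methamphetamine, and 1.99, 1.71 and 1.48 against saline set I. After scaling to the 75th percentile the log2 differences from the 8 saline libraries were 0.57, 0.39 and 0.23, against 1.07, 0.87 and 0.68 as deposited. The saline sets differed here too, at 6.65 ± 0.540 FPKM in set I and 5.06 ± 0.782 in set II. Ketamine libraries held 6.84, 8.13, 7.30 and 8.76 FPKM, 3 of 4 above all saline libraries and all 4 above set II (as in 5.85% of all genes), with a mean 1.33 times that of the 8 and 1.53 times that of set II. Mianserin libraries (5.82, 7.90, 5.83 and 7.55) and venlafaxine libraries (4.84, 4.29, 3.71 and 5.36) overlapped saline. The venlafaxine log2 difference of -0.30 was -0.13 against set II and 0.18 after scaling to the 75th percentile. That scaling gave 0.78 for ketamine and 0.65 for mianserin, both above the 0.57 of haloperidol. Against the own saline sets the log2 difference of ketamine (0.54) was above that of methamphetamine (0.50).

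**Figure D1:**
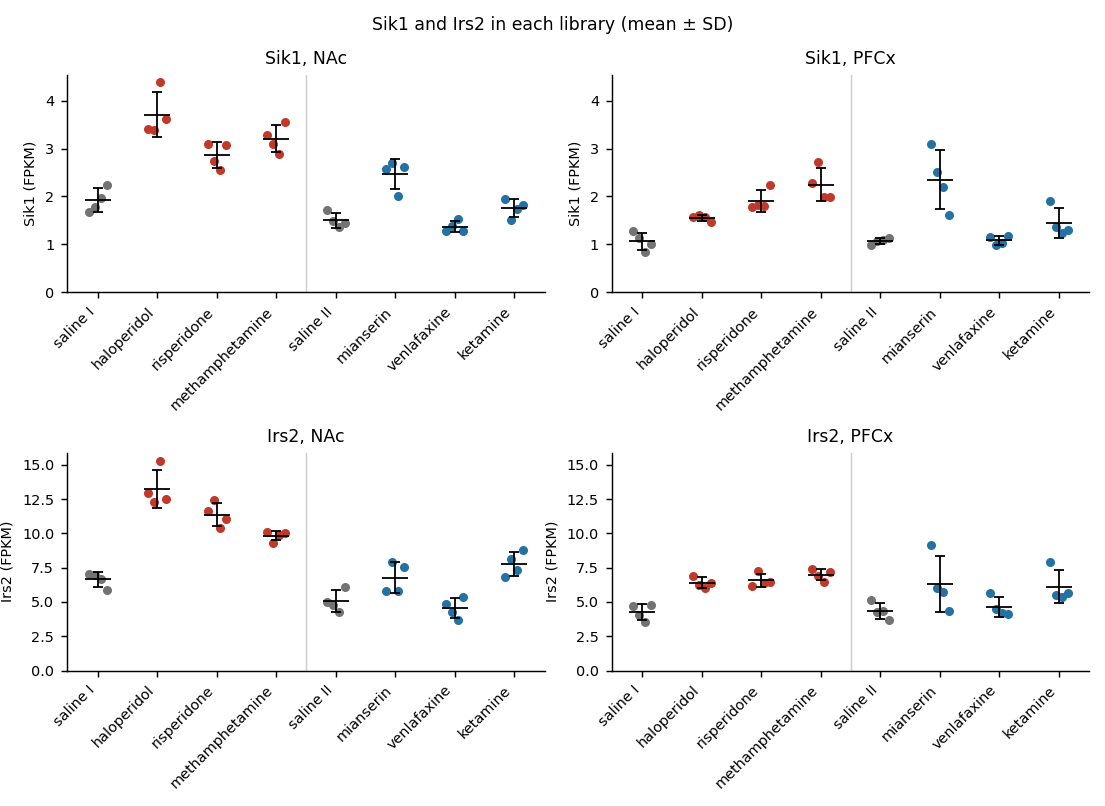
FPKM of Sik1 and Irs2 in every library of the NAc and the PFCx, by treatment, with saline sets I and II drawn apart. The mean ± SD is a black bar (n = 4 per group). Points are grey for saline, red for drugs of the sample set of saline I and blue for drugs of that of saline II. In the NAc the haloperidol, risperidone and methamphetamine libraries sit above all saline libraries for both genes.

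In the PFCx, Irs2 differed less between the drugs. Methamphetamine libraries held 7.42, 6.91, 6.47 and 7.18 FPKM, risperidone libraries 6.18, 7.23, 6.42 and 6.49, and haloperidol libraries 6.93, 6.25, 5.99 and 6.42. Saline ran from 3.51 to 5.11 with a median of 4.30, below all of these. Ketamine libraries held 7.90, 5.54, 5.33 and 5.63, all above saline. Mianserin libraries ran from 4.37 to 9.19 FPKM, the widest spread of any group of this gene in the PFCx, and overlapped saline, as did those of venlafaxine (4.12 to 5.65). Ratios of means were 1.62 for methamphetamine, 1.53 for risperidone, 1.49 for haloperidol, 1.47 for mianserin and 1.42 for ketamine. All 6 neighbouring pairs in the order of means overlapped.

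Over the 6 drugs, limma called 302 of 37034 genes in the NAc (0.815%) and 48 in the PFCx (0.13%). None of the 5 tested members (Sik2, Sik3, Creb1, Crtc1 and Crtc2) was among them. Single drugs called 0.721% of all genes in the NAc for haloperidol, 0.729% for risperidone, 0.194% for methamphetamine, 1.84% for mianserin, 1.83% for venlafaxine and 1.97% for ketamine, and in the PFCx 0.162%, 0.51%, 0.351%, 0.667%, 0.0054% and 0.0162% for the same drugs in this order. Against the 8 saline libraries no tested member was called for any single drug. The single-drug comparisons share their saline libraries.

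Groups of 4 drug libraries lay wholly outside the 8 saline libraries for few genes in all. In the NAc this held for 1.33% of all genes with haloperidol (Sik1 and Irs2 among the members), 1.37% with risperidone (Sik1 and Irs2), 0.878% with methamphetamine (Sik1, Sik2 and Irs2), 1.71% with mianserin, 1.29% with venlafaxine and 1.79% with ketamine (no member for the last 3). In the PFCx it held for 1.11% with haloperidol, 1.53% with risperidone and 0.967% with methamphetamine (Sik1 and Irs2 each time), 1.35% with mianserin (Sik1), 0.748% with ketamine (Irs2) and 0.597% with venlafaxine (no member).

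Markers of other cells moved with some of these groups. Summed FPKM of the 6 cortical projection neuron markers, all in the tables and none at 0 in every library, averaged 69.6 in the NAc libraries of haloperidol, 58.7 of ketamine, 56.5 of methamphetamine and 47.9 of risperidone, against 58.2 in saline set I and 32.04 in saline set II. The 3 hemoglobin genes averaged 70.5 after haloperidol and 25.9 after mianserin, against 66.6 and 36.7 in the same saline sets, while the 3 choroid plexus markers summed to at most 2.01 FPKM in any library of either tissue. The part of these markers in the Sik1 and Irs2 differences was not tested. In bulk tissue fewer cells of a type and less RNA per cell cannot be told apart.

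Sik2, a kinase of the same family, belongs to the 5 members whose drug comparisons were tested. After methamphetamine, NAc Sik2 was 8.97, 9.07, 8.91 and 9.11 FPKM, above all 8 saline libraries (6.31 to 8.08, median 7.35). PFCx Sik2 was 7.999, 8.24, 7.28 and 8.01 FPKM against 5.18 to 7.51 (median 6.57), so 3 of 4 libraries lay above saline. Against the 8 saline libraries neither difference passed the threshold, although the NAc difference did when genes with a mean FPKM under 1 were left out (limma adjusted p = 0.04157). It was 0.29 (SE 0.063, 95% CI 0.157 to 0.416, limma adjusted p = 0.05035) in the NAc and 0.26 (SE 0.067, 95% CI 0.123 to 0.398, adjusted p = 0.1046) in the PFCx.

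The 2 saline sets of Sik2 did not overlap in either tissue. Set I held 6.69 ± 0.397 FPKM in the NAc and 5.74 ± 0.545 in the PFCx. Set II had 7.77 ± 0.225 and 7.16 ± 0.326 (n = 4 each). Set I was inferred to be that of methamphetamine from the NAc libraries alone. Against it, Sik2 was higher after methamphetamine by 0.38 in the NAc (95% CI 0.251 to 0.512, limma adjusted p = 0.004723) and by 0.40 in the PFCx (95% CI 0.282 to 0.518, adjusted p = 0.000588), or 1.35 and 1.37 times. These fits called 0.0891% and 0.159% of all genes. After scaling to the 75th percentile the NAc difference from the 8 saline libraries turned to -0.16 and the PFCx difference was 0.25, and that scaling moved the median of genes averaging 1 FPKM or more by -0.37 in this comparison in the NAc.

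Other drugs left Sik2 closer to saline. Haloperidol libraries in the NAc held 7.52, 7.70, 9.58 and 8.49 FPKM, all above set I (as in 2.7% of all genes, in either direction), while set II ran from 7.60 to 8.08, with a difference of 0.27 from set I (limma adjusted p = 0.07227). Venlafaxine libraries in the PFCx held 6.05, 5.75, 5.67 and 6.46 FPKM, all below set II (as in 6.1% of all genes, in either direction), with a difference of -0.23 from it (adjusted p = 0.06077). All 4 risperidone libraries of the PFCx lay above set I (as in 3.99% of all genes, in either direction), with a difference of 0.21 that was not called. Over the 6 drugs Sik2 was not called in the NAc (adjusted p = 0.01151) or the PFCx (adjusted p = 0.08367), and its drug effect was not called different between the tissues (adjusted p = 0.4219). The Sik2 exons share 1429 bases with Ppp2r1b on the opposite strand, where reads cannot be told apart without strand.

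**Figure D2:**
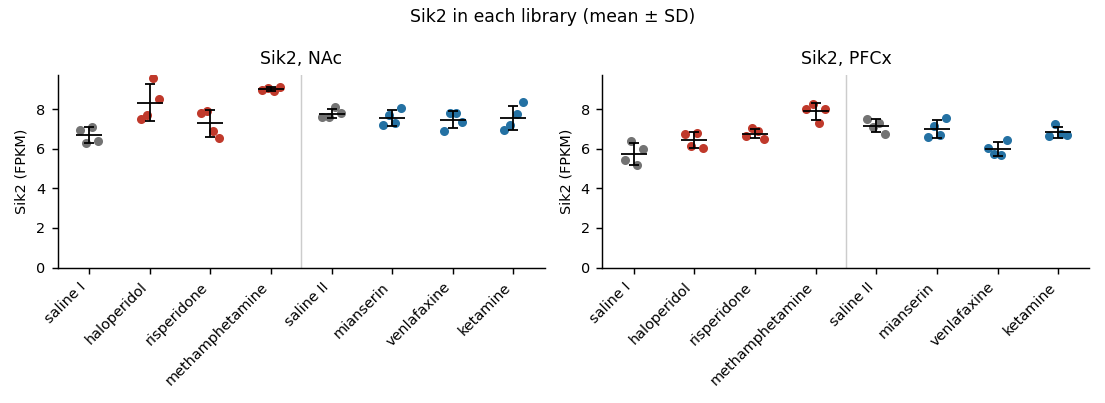
FPKM of Sik2 in every library by treatment, with saline sets I and II drawn apart and the mean ± SD as a black bar (n = 4 per group). The methamphetamine libraries of the NAc lie between 8.91 and 9.11, above both saline sets, and set I lies below set II in both tissues. After scaling to the 75th percentile the NAc difference from the 8 saline libraries changed sign.

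Sik3 is the third kinase of the family. Its NAc means ran from 14.2 ± 2.24 FPKM after venlafaxine to 18.05 ± 0.709 after risperidone (17.2 to 18.8), against 15.8 ± 0.970 after saline (14.1 to 17.4). The differences from saline lay between -0.15 and 0.19, with adjusted p values of at least 0.2411, and their signs went with the sample set of the drug. The 3 drugs of set I had positive values and the 3 of set II negative ones, and all 6 changed sign after scaling to the 75th percentile. As deposited, the saline sets differed by 0.04 (I minus II). Against the own set the values were 0.15, 0.17 and 0.13 for haloperidol, risperidone and methamphetamine. They were -0.06, -0.13 and -0.11 for mianserin, venlafaxine and ketamine. Over the 6 drugs the limma adjusted p was 0.003761 against the 8 saline libraries and 0.804 against the own sets, neither under the threshold. In the PFCx differences ran from 0.01 to 0.13 (adjusted p over the drugs = 0.5235).

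Creb1 encodes the factor that the kinases and coactivators act on. After mianserin its 4 NAc libraries held 6.93, 6.57, 6.47 and 7.93 FPKM, all below the 4 of saline set II (8.01 to 8.21), and its 4 PFCx libraries held 7.36, 7.32, 7.33 and 6.66, also below set II (7.45 to 9.13). Libraries wholly outside set II, in either direction, occurred in 4.45% of all genes in the NAc and 7.17% in the PFCx after mianserin. The differences were -0.20 in the NAc (95% CI -0.342 to -0.0635, limma adjusted p = 0.09777) and -0.17 in the PFCx (95% CI -0.316 to -0.0219, adjusted p = 0.4329), and neither passed. The NAc value was 0.26 after scaling to the 75th percentile. The remaining drugs gave -0.14 to 0.15.

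Crtc1 and Crtc2, the coactivators that salt-inducible kinases hold back, were not called for any drug as deposited. With scaling to the 75th percentile limma called Crtc1 after mianserin (0.59, adjusted p = 0.04878) and Crtc2 after venlafaxine (0.56, adjusted p = 0.02453) in the NAc. Crtc1 means ran from 14.8 to 16.6 FPKM in the NAc and from 12.1 to 14.5 in the PFCx, with differences from -0.04 to 0.21. Crtc2 means ran from 3.24 to 4.07 and from 2.92 to 4.17. Its highest difference was that of haloperidol in the PFCx, where the libraries held 4.35, 5.09, 3.05 and 4.19 FPKM against 2.31 to 4.00 after saline. The difference was 0.31 with a 95% CI of 0.0578 to 0.553 (limma adjusted p = 0.2519), so an increase of more than 0.553 is outside the interval. In the NAc limma gave adjusted p values over the drugs of 0.7472 for Crtc1 and 0.3575 for Crtc2.

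**Figure D3:**
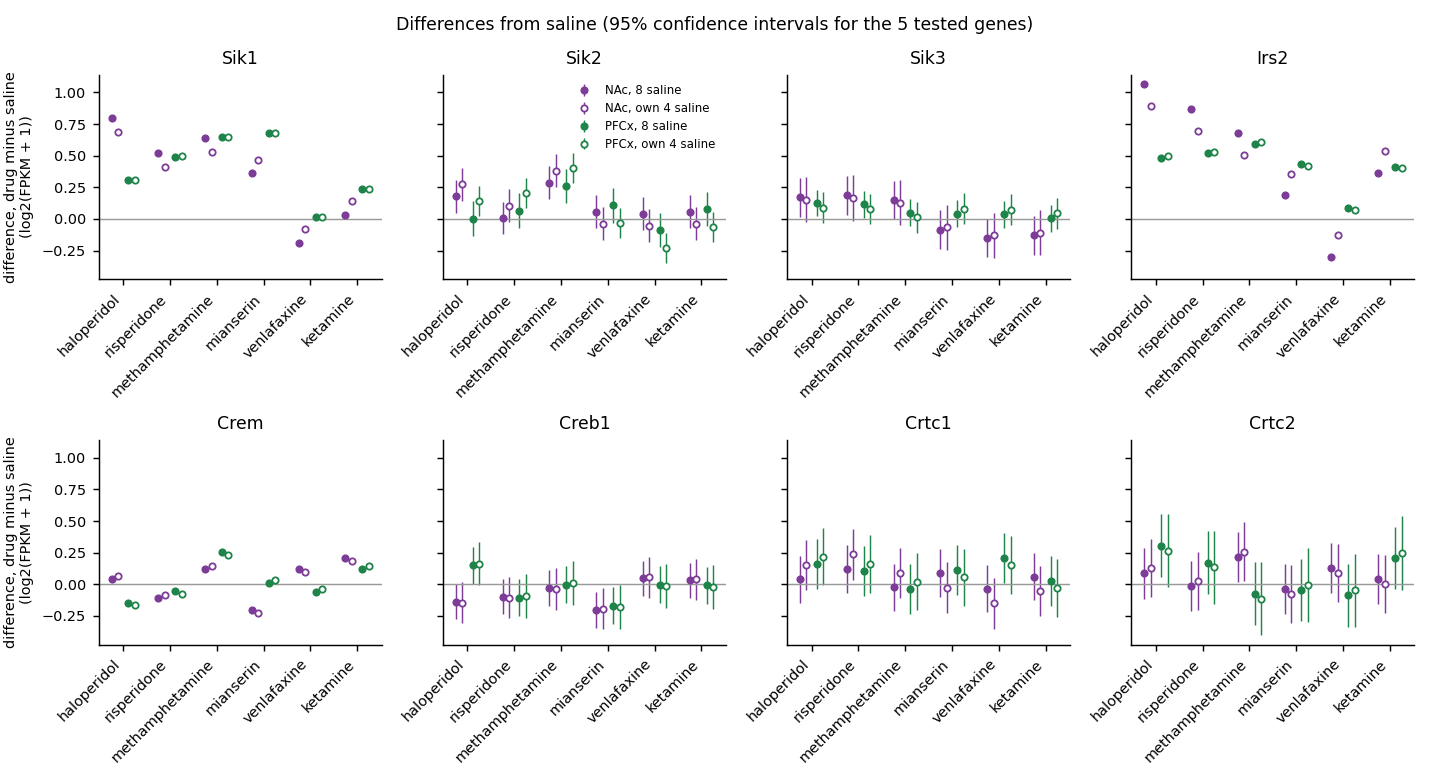
Differences of log2(FPKM + 1) between each drug and saline for the 8 genes, with 95% confidence intervals from limma for the 5 tested genes and none for Sik1, Crem and Irs2, in purple for the NAc and green for the PFCx, filled against all 8 saline libraries and open against the 4 of the own sample set. Sik1 and Irs2 reach 0.80 and 1.07 after haloperidol in the NAc, while Crtc1 stays between -0.04 and 0.21 against all saline. In the NAc the small differences of Sik2, Sik3, Crem, Creb1, Crtc1 and Crtc2, and those of Sik1 and Irs2 after venlafaxine, changed sign for some or all drugs after scaling to the 75th percentile.

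Crem, the gene on chromosome 18 that encodes activators and repressors related to CREB, did not share the response of Sik1 and Irs2 at the level of the gene. Summed over its 39 transcripts, NAc saline libraries ran from 2.74 to 4.77 FPKM (median 3.44), and the drug means from 2.97 ± 0.232 after mianserin to 4.30 ± 0.617 after ketamine, all groups overlapping saline. The NAc differences after scaling to the 75th percentile ran from -0.48 after risperidone to 0.58 after ketamine. The highest PFCx mean was that of methamphetamine, with libraries at 7.36, 6.56, 6.54 and 5.54 FPKM against 4.49 to 6.20 (median 5.23) after saline. Of the 4, 3 lay above all saline libraries, and the difference was 0.26 against the 8 and 0.24 against set I. Crem coverage was 7.66 reads per base at the median (2.76 to 12.9), spread over the 39 transcripts, of which 15 had a mean FPKM above 0.1. The exons share 472 bases with Gm6225 on the opposite strand.

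The Crem transcripts fall into 6 groups by the position of their annotated 5′ end, joined within 2000 bases. The group nearest to the end of the gene holds 7 transcripts that begin at least 55979 bases downstream of the start of the gene, all with short coding sequences of 285 to 375 bases. Their starts lie inside an intron of 26 of the 32 transcripts that begin upstream, and the other 6 end before it. The position is that known for the ICER promoter, although the annotation does not use that name. After saline these internal-start transcripts made up 57.3% ± 12.2 of Crem FPKM in the NAc and 61.2% ± 6.35 in the PFCx (SD, n = 8). When starts are joined within 500 bases instead, the group holds 3 of the 7 transcripts, as neighbouring starts lie up to 606 bases apart, and the shares are 17.1% and 16.9%. The difference of -3.84 percentage points did not exceed the spread between libraries (two-sided exact permutation test, p = 0.4365). The group with the most upstream starts made up 19.8% and 14.2%. Cufflinks divides reads between overlapping transcripts by likelihood, so an error in 1 transcript passes to the others.

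Internal-start Crem was lower after mianserin in the NAc. The 4 libraries held 0.867, 1.30, 0.793 and 0.954 FPKM, against 1.51 to 3.05 (median 2.03) after saline. All 4 thus lay below all 8 (as in 1.71% of single genes, in either direction). The mean was 0.480 times that of the 8 saline libraries and 0.547 times that of set II. The share of internal-start transcripts was 30.2%, 40.4%, 25.7% and 35.4%, below the 45.3% to 77.0% of saline. It differed by -24.4 percentage points from the 8 saline libraries and by -15.95 from set II. The other Crem transcripts together had a mean of 1.99 FPKM after mianserin, 1.58 in the 8 saline libraries and 1.90 in set II. Mianserin did not lower the group in the PFCx, where its libraries ran from 2.55 to 4.24 FPKM on both sides of saline (2.86 to 3.73). A share over groups of transcripts was not taken, and drugs were not compared for starts joined within 500 bases.

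In the PFCx, venlafaxine libraries held 2.75, 2.51, 2.56 and 2.82 FPKM of internal-start Crem. All lay below saline (as in 0.597% of single genes, in either direction), with a mean 0.83 times that of the 8. Methamphetamine libraries held 4.75, 4.42, 4.24 and 3.47, of which 3 lay above saline, with a mean 1.32 times that of the 8. In the NAc the haloperidol, risperidone and methamphetamine groups, in which Sik1 and Irs2 were high, had internal-start means of 2.12, 1.77 and 2.03 FPKM against 2.04 after saline. Their libraries were widely spread, from 0.346 to 2.73 within risperidone alone. Coverage of the internal-start group was 4.16 reads per base at the median and 0.872 in the lowest library, and differences of the size of that spread were not detectable. Crem was chosen for its response, so these values are a description.

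**Figure D4:**
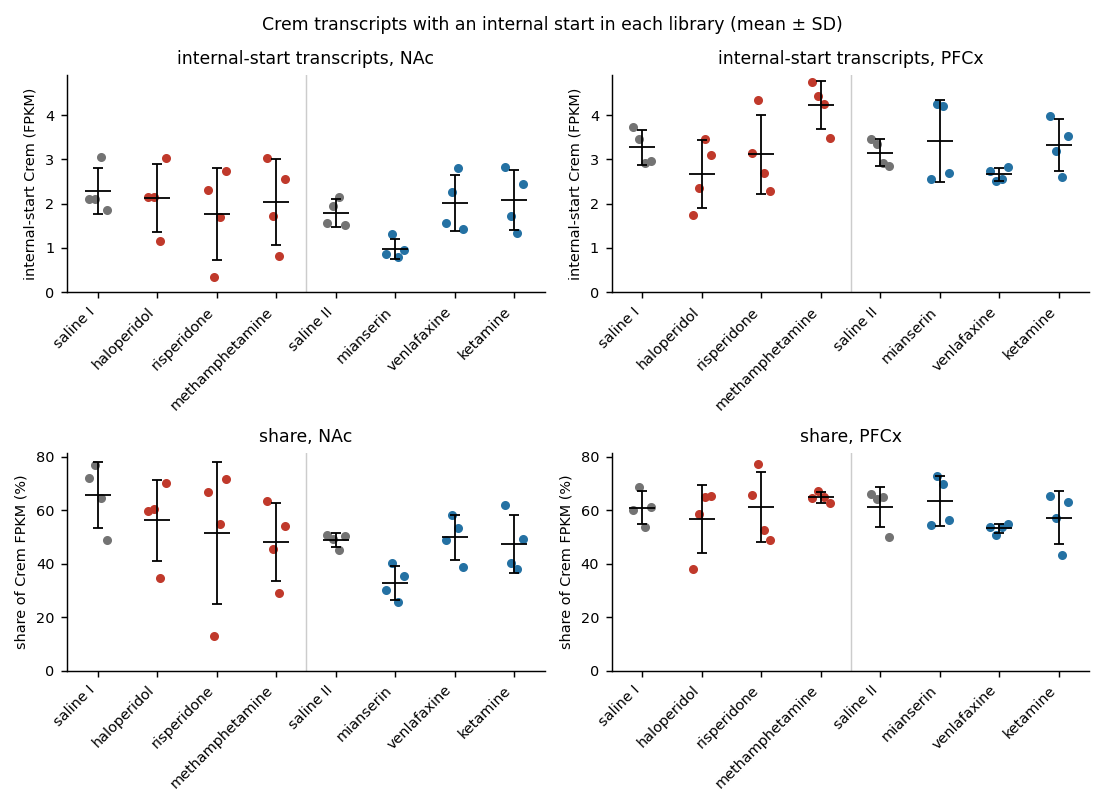
FPKM of the 7 internal-start Crem transcripts and their share of all Crem FPKM in percent, in every library by treatment. Saline sets I and II are drawn apart, with the mean ± SD as a black bar (n = 4 per group). The 4 mianserin libraries of the NAc lie between 0.793 and 1.30 FPKM, below the lowest saline library at 1.51 (as in 1.71% of single genes, in either direction). Starts were joined within 2000 bases.

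Of the 79 member transcripts, 51 passed the filter on low values. Over the 6 drugs, limma on single transcripts called 0.12% of 86331 transcripts for the NAc and 0.0336% for the PFCx. No transcript of Sik2, Sik3, Creb1, Crtc1 or Crtc2 was among them.

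The 2 tissues were compared after saline, a contrast that the choice of members did not use. The low number of transcripts above 0 in saline set I was confined to the NAc, and a set covariate shared by both tissues cannot remove it. Its part in the tissue differences was not tested. Of the 8 members, 5 differed, against 33.9% of all genes (2653 higher in the NAc and 9911 lower). Sik3 differed most, at 15.8 ± 0.970 FPKM in the NAc (14.1 to 17.4) and 9.70 ± 0.501 in the PFCx (8.89 to 10.4), without overlap. The NAc level was 1.62 times that of the PFCx, a log2 difference of 0.65 (limma adjusted p = 6.05e-09). Sik1 stood at 1.71 ± 0.294 and 1.07 ± 0.126 FPKM, also without overlap, a difference of 0.39 (adjusted p = 0.0002017). Sik2 was not called, at 0.15 with a 95% CI of -0.00477 to 0.302 (adjusted p = 0.1179), but was called with saline set as a covariate (0.15, adjusted p = 0.01574) and with median ratio scaling (0.23, adjusted p = 0.04039), and the value was -0.22 after scaling to the 75th percentile.

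Crem was the member with the higher level in the PFCx, 5.27 ± 0.523 FPKM (4.49 to 6.20) against 3.62 ± 0.809 (2.74 to 4.77) in the NAc. The PFCx level was 1.45 times that of the NAc, a log2 difference of -0.45 (limma adjusted p = 0.001529). Irs2 was higher in the NAc, at 5.85 ± 1.05 against 4.31 ± 0.554 FPKM, by 0.36 (adjusted p = 0.008074). The tissue difference of Irs2 was -0.0043 after scaling to the 75th percentile. Crtc1 stood at 15.2 ± 2.18 and 12.5 ± 1.62 FPKM, a difference of 0.26 (adjusted p = 0.03251) that lost the call without any 1 of 7 libraries (0.22 to 0.31 over all libraries left out) and was -0.14 after scaling to the 75th percentile. Under that scaling Crem alone of the 5 kept its call. Creb1 differed by -0.0030 with a 95% CI of -0.135 to 0.129 (adjusted p = 0.9737) and Crtc2 by 0.07 with a 95% CI of -0.0910 to 0.227 (adjusted p = 0.491).

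**Figure D5:**
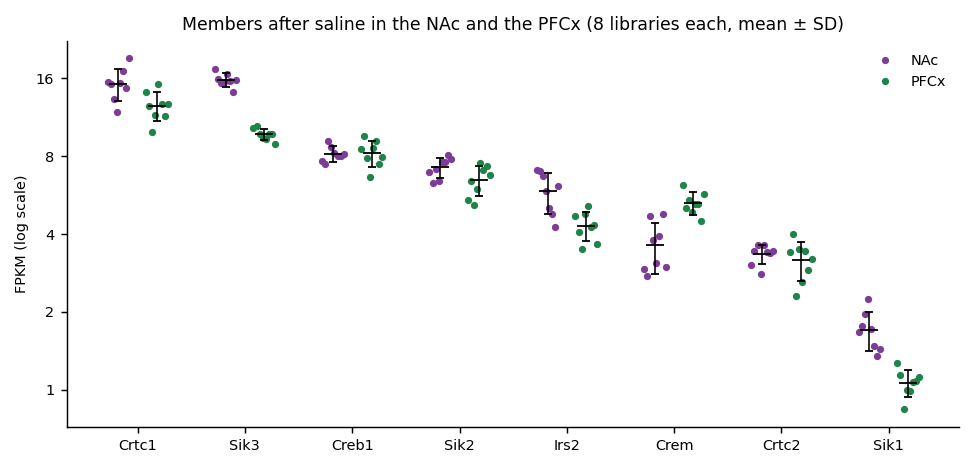
FPKM of the 8 genes after saline on a logarithmic axis, with 8 libraries of the NAc in purple and 8 of the PFCx in green. Sik1 and Sik3 do not overlap between the tissues, and Crem is the gene with the higher PFCx mean among those called. After scaling to the 75th percentile the differences of Irs2 and Crtc1, and those of Sik2 and Crtc2, changed sign.

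At the level of single transcripts 13.7% of all were called between the tissues. Of the member transcripts that passed the filter on low values, 7 were called, about the same share, so this count does not set the members apart. The 7 were the sole transcripts of Sik1 and Irs2 and 5 others. The Sik3 transcript ENSMUST00000122865, which made up 54.9% of NAc Sik3 FPKM, was higher in the NAc by 0.64 (limma adjusted p = 7.19e-06), and ENSMUST00000126865, whose coding sequence is the longer of the pair, by 0.47 (adjusted p = 0.01284). The protein-coding Crtc1 transcript ENSMUST00000076615 was higher in the NAc by 0.40 (adjusted p = 0.001703). The Crem transcript ENSMUST00000140332, with an internal start, was lower in the NAc by a log2 difference of -0.61 (adjusted p = 0.0399), and ENSMUST00000151311, with an upstream start, by -0.37 (adjusted p = 0.0115). The called Sik3 transcripts differed in the same direction, as did the called Crem transcripts. Among the uncalled internal-start Crem transcripts, ENSMUST00000151084 (0.33) and ENSMUST00000139537 (0.12) had positive differences and all others negative ones.

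A drug effect that differed between the tissues was called for 1.01% of all genes and for none of the 5 tested members. The limma adjusted p values were 0.1478 for Sik3, 0.1483 for Crtc2, 0.2186 for Creb1, 0.4219 for Sik2 and 0.7126 for Crtc1.

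The surrounding pathway was read from 5 lists. No gene was called over the 6 drugs in either tissue among 16 CREB relatives, coactivators and SIK partners (such as Atf1, Crtc3, Crebbp and the SIK-activating kinase Stk11), 25 genes of the cAMP and protein kinase A arm, 16 of the calcium arm or 17 of the insulin and IGF arm. In the NAc each drug called 0.194% to 1.97% of all genes. Among these list genes single drugs made 6 calls there, a share of all pairs of gene and drug that lies within that range. They were the phosphodiesterase Pde4a after haloperidol, the adenylyl cyclase Adcy9 and the calcium-dependent kinases Camk1g and Camkk1 after risperidone, and the G protein subunit Gnai1 after ketamine, all higher, and the kinase Akt1 after venlafaxine, which was lower. Against the own saline set only Gnai1 and 1 of the 2 risperidone calls of the calcium arm remained, and after scaling to the 75th percentile Pde4a, Adcy9, Camkk1 and Akt1 changed sign in the NAc. In the PFCx, Camkk1 was called higher after risperidone (0.51% of all genes called) and mianserin (0.667%), and Adcy9 after mianserin. Of these, Adcy9 was also called against its own saline set.

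The fifth list holds 22 genes known as CREB targets, most of them immediate early genes and neuropeptides. It was chosen with earlier results of these data known. The counts and p-values given for its genes are therefore a description and not a test of the list. Over the drugs 12 of 22 were called for the NAc (0.815% of all genes), 6 of 22 for the PFCx (0.13%), and 6 differed between the tissues (1.01%). In the NAc 11 of 22 rose after haloperidol (median of the list 0.37, of all genes -0.05, with 0.721% of all genes called), 9 after methamphetamine (0.42, -0.05 and 0.194%) and 7 after risperidone (0.18, -0.05 and 0.729%), with none lower, although after scaling to the 75th percentile Per1 and Scg2 (haloperidol) and Egr1 (risperidone) changed sign. Against saline set I, 8, 7 and 5 of 22 were called for these drugs, all higher. After mianserin 2 rose and Rgs2 fell (1.84% of all genes called), after ketamine 3 rose (1.97%), and after venlafaxine 5 fell (1.83%, Junb, Nr4a1, Rgs2, Tac1 and Vgf), of which Rgs2, Tac1 and Vgf changed sign after that scaling. Against saline set II, 2 were called higher for mianserin, 2 for ketamine and 0 for venlafaxine. In the PFCx 9 rose after methamphetamine (0.351% of all genes called) and 6 each after haloperidol (0.162%) and risperidone (0.51%). After mianserin (0.667%) 5 rose and Rgs2 fell, and limma called none after venlafaxine or ketamine. Against the own saline sets the calls were 7, 2, 5 and 5 for methamphetamine, haloperidol, risperidone and mianserin, all higher.

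Named by the lowest adjusted p, the NAc targets were the transcription factors Fosb, Nr4a1, Fos, Junb and Egr1 and the phosphatase Dusp1. Fosb rose by 1.85 after haloperidol (SE 0.087, limma adjusted p = 4.66e-14), by 1.10 after risperidone, by 0.91 after methamphetamine and by 0.34 after mianserin. Nr4a1 rose by 1.59, 0.74 and 1.56 after the same drugs and fell by 0.55 after venlafaxine (adjusted p = 0.01112). Fos rose by 1.78 after haloperidol, 1.20 after methamphetamine and 0.76 after risperidone, and also by 1.03 after mianserin and 1.14 after ketamine. Egr1 rose by 0.76 after haloperidol, 0.66 after methamphetamine, 0.34 after risperidone and 0.31 after ketamine, although its risperidone value changed sign after scaling to the 75th percentile. Junb rose by 1.83, 0.98 and 1.20 after haloperidol, risperidone and methamphetamine, and Dusp1 by 1.01, 0.47 and 0.60. Junb fell by 0.60 after venlafaxine, with a difference of -0.28 against saline set II. Against that set neither Junb nor Nr4a1 was called after venlafaxine.

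In the PFCx the named targets were Nr4a1, Dusp1, Bdnf, Junb, Fos and Fosb. Dusp1 rose by 1.10 after mianserin (SE 0.116, limma adjusted p = 1.56e-06), 0.98 after methamphetamine, 0.63 after haloperidol and 0.58 after risperidone. Junb rose by 1.07, 1.08, 0.80 and 1.00 after the same 4 drugs. Bdnf, a neurotrophin, rose by 0.35 after methamphetamine and 0.33 after haloperidol and had -0.20 after mianserin (adjusted p = 0.2667). Sik1 had 0.68, 0.65, 0.31 and 0.49 after mianserin, methamphetamine, haloperidol and risperidone in this tissue.

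Likeness to a member was measured as Pearson's r over the 12 differences of 6 drugs and 2 tissues, each against the own saline set, among 14501 genes averaging 1 FPKM or more in both tissues. The points share saline libraries and sample sets, and no p is given. Closest to Sik1 were Junb (0.95), Dusp1 (0.93), Dusp5 (0.92), Tiparp (0.90) and Csrnp1 (0.90). Irs2 was closest to Tsc22d1 (0.95), Vgf (0.91), Egr4 (0.90), Gmeb2 (0.89) and Ccdc85c (0.89). Sik1 and Irs2 had an r of 0.75 with each other, and Sik2 0.69 with Sik1 and 0.65 with Irs2. Crem had 0.0026 with Sik1 and 0.07 with Irs2, and its closest genes were Hadha (0.91), Heatr1 (0.84), Yipf5 (0.81), Cul2 (0.81) and Noct (0.81).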

How the data were processed

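RNA-seq libraries of the NAc and PFCx were assigned to a tissue and a drug by their labels. The authors aligned reads with TopHat2 2.0.1 and Tmap and estimated transcript levels with Cufflinks 2.2.1 on the Ensembl annotation of GRCm38 (mm10), and the deposited tables give FPKM per transcript. The deposited coverage, a signal in reads per base not scaled to depth, was used for depth only. The tables hold no read counts, so count models were not used.

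FPKM was summed per gene, and genes with a mean of at least 0.1 in the NAc or the PFCx entered the tests (37034 genes, or 86331 transcripts). Tests used log2(FPKM + 1) in limma 3.58.1 (R 4.3.3), with 6 drugs against 8 saline libraries within a tissue, a model of both tissues for the difference of the drug effect, Benjamini-Hochberg adjustment over all genes, and thresholds of 0.0001 (drug effect), 0.05 (single drug, tissue) and 0.001 (drug effect by tissue). These steps were tested on simulated data. The Crem share was compared with an exact permutation test in scipy 1.17.1 (Python 3.11.15, numpy 2.4.6). Sample sets of the drugs were inferred from how many transcripts each NAc library listed above 0. Transcript types came from GENCODE vM21.

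The members, lists and tests were chosen with earlier results of these data known. Named were all 8 members, up to 6 genes per list with the lowest adjusted p among those called by the drug effect, and the 5 genes most like Sik1, Crem and Irs2. The alternatives tried were adding 0.1 in place of 1, testing every gene, requiring a mean FPKM of 1, the own saline set, saline set as a covariate, the replicate number as a block, scaling to the 75th percentile, a 500-base grouping of Crem starts and leaving out each library in turn. Median ratio scaling and the fit of single transcripts were added after seeing the data. Reads were not analysed here.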

Additional observations from a re-analysis of the deposited data

Results flagged for a closer look

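Of 140 groups of libraries examined, 10 held a library far from the others by Dixon's criterion, and chance gives about 1 in 20. For Sik1, mianserin replicate 3 of the NAc was low at 2.00 FPKM (others 2.58 to 2.69) and risperidone replicate 4 of the PFCx high at 2.25 (1.78 to 1.81). For Sik3, haloperidol replicate 1 and methamphetamine replicate 2 of the NAc were high at 21.0 (16.6 to 17.3) and 19.3 (16.8 to 17.2), as were risperidone replicate 4 and mianserin replicate 1 of the PFCx at 11.4 (10.2 to 10.4) and 10.6 (9.77 to 9.88). In the PFCx, Creb1 was low in mianserin replicate 4 at 6.66 (7.32 to 7.36), Crtc1 high in methamphetamine replicate 1 at 12.9 (11.8 to 11.9) and Irs2 high in ketamine replicate 1 at 7.90 (5.33 to 5.63). Internal-start Crem was high in replicate 3 of NAc saline set I at 3.05 (1.51 to 2.16 in the other 7).

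Among 48 pairs of member and drug, Creb1 after haloperidol was the pair in which the tissues moved apart, with all libraries on opposite sides of the saline mean. The NAc difference was -0.14 and the PFCx difference 0.15. Neither was called, and the difference between them for this drug alone was not tested. Over the 6 drugs the limma adjusted p for Creb1 was 0.2186.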

How the results depend on the processing

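The tested comparisons of members gave 5 calls, all between tissues, and none among 30 pairs of member and drug in the NAc or the PFCx. All 5 were kept without a filter, with a mean FPKM of at least 1, with saline set as a covariate, with the replicate number as a block and with median ratio scaling, and 4 with a pseudocount of 0.1 (Crtc1 was lost). A mean FPKM of at least 1 added 1 pair in the NAc (Sik2 after methamphetamine), the own saline set added the same pair in each tissue (1 and 1) and changed the sign of 12 of 60 uncalled differences, and saline set as a covariate or median ratio scaling added Sik2 between tissues. Scaling to the 75th percentile kept 1 of 5 tissue calls (Crem), losing Sik1, Sik3, Crtc1 and Irs2. It added 6 pairs in the NAc (Sik2 and Crtc1 after mianserin, Sik2, Creb1 and Crtc2 after venlafaxine and Creb1 after ketamine), 1 member over the drugs in the NAc (Creb1) and 3 members whose drug effect differed between tissues (Sik2, Creb1 and Crtc2). It reversed Sik3 after venlafaxine in the NAc (0.39) and the tissue differences of Crtc1 (-0.14) and Irs2 (-0.0043). It lowered the NAc differences of Sik1 and Irs2 after haloperidol, risperidone and methamphetamine, and raised those after mianserin, venlafaxine and ketamine. This scaling moved the median of genes with a mean FPKM of at least 1 by -0.39 to 0.41 in the NAc comparisons, and the cause was not tested. Crem starts joined within 500 bases turned the tissue difference of the internal-start share from -3.84 to 0.131 percentage points, with 3 instead of 7 transcripts in the group.

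Without 1 library, the pairs called ranged from 0 to 1 in either tissue, members between tissues from 4 to 5 and the Crem share difference from -6.66 to -2.12. Sik2 after methamphetamine gained a call without any 1 of 8 libraries in the NAc (2 each of haloperidol, ketamine, risperidone and saline II) and without saline II replicate 1 in the PFCx.

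Libraries with the same replicate number correlated weakly (mean r 0.098 in the NAc and 0.104 in the PFCx, lowest -0.269 and -0.394). The mean was higher than for different numbers (-0.033 and -0.031). An r over 0.1 occurred in 56.2% against 17% of these library pairs in the NAc and 42.9% against 23.2% in the PFCx. The main fits did not take the numbers as pairs, so a structure by replicate number remains in them. With the replicate number as a block 0 pairs of member and drug were called in either tissue, and no member call changed. Over all genes that block changed the calls of the drug effect from 302 to 158 in the NAc and from 48 to 38 in the PFCx. Depth limits small differences of Sik1 and internal-start Crem, whose median coverage was 3.33 and 4.16 reads per base.

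Counts over all genes moved by more than 1.5 times under some alternatives. In the NAc the lowest and highest counts were 121 and 10810 for the drug effect (302), 13 and 482 for haloperidol (267), 0 and 462 for risperidone (270), 101 and 10912 for mianserin (681), 3 and 13446 for venlafaxine (676), 3 and 112 for methamphetamine (72) and 224 and 8858 for ketamine (731). In the PFCx they were 8 and 381 for haloperidol (60), 60 and 560 for risperidone (189), 134 and 744 for mianserin (247), 0 and 274 for venlafaxine (2), 59 for methamphetamine (130) and 2 and 559 for ketamine (6). Between tissues a mean FPKM of at least 1 left 7110 of 12564, and the drug effect by tissue ranged from 105 to 10853 (374). The share of higher among called genes was 73.0%, 60.1%, 83.3% and 72.6% for haloperidol, venlafaxine, methamphetamine and ketamine in the NAc and 51.4% for mianserin in the PFCx, and 62.2%, 72.0%, 73.2%, 54.8% and 65.1% with median ratio scaling. With scaling to the 75th percentile it was 61.5%, 99.2%, 100% and 98.6% for these drugs in the NAc, 99.6% for mianserin there (77.7% without), and 76.3% for mianserin and 66.7% for venlafaxine (50% without) in the PFCx.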

Other observations

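Between the tissues after saline, 22 of 25 genes of the cAMP and protein kinase A arm were called by limma, 9 higher in the NAc and 13 lower, and 15 of 16 of the calcium arm, 4 higher and 11 lower, against 33.9% of all genes. Of the CREB relatives and SIK partners 8 of 16 were called, namely Hdac4, Hdac7 and Hdac9 (class IIa deacetylases that salt-inducible kinases phosphorylate), Mef2a, Mef2c, Stk11, Ywhab and Ywhaz, and of the insulin and IGF arm 10 of 17. After scaling to the 75th percentile Stk11, Pde2a, Insr and Pdpk1 changed sign, and the counts were 9, 20, 12 and 11 for the CREB relatives, the cAMP arm, the calcium arm and the insulin arm. The list medians were -0.15 for the CREB relatives, -0.24 for the cAMP arm, -0.36 for the calcium arm and -0.13 for the insulin arm, and -0.10 over all genes.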
